A study of Rattus norvegicus with 6 samples.

Results

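The rat major histocompatibility complex (MHC, called RT1 in the rat) and the genes that load peptides onto its products were examined in fractured femurs of ovariectomized rats. The set held every row of the gene tables whose name begins with RT1-, which gave 31 genes, and 9 further genes of the pathway (Cd74, Ciita, B2m, Tap1, Tap2, Tapbp, Psmb8, Psmb9 and Mill1). It thus comprised 40 of 34538 genes, of which 21 were class I genes, 10 were class II genes, 8 were processing genes and 1 was Mill1. Mill1 was included with its difference between the groups of these samples already known, so its values are a description. Counts were present for 37 of the 40 genes, and 34 passed the filter on low counts. RT1-M4, RT1-M5 and RT1-Ha had 0 counts in every library, and RT1-S2, RT1-CE1 and RT1-Db2 had counts but were not tested.

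The comparison used 6 libraries, 3 named Gel and 3 named MgPA-Gel. All came from female rats of the outbred Sprague Dawley stock whose ovaries had been removed on both sides at 8 weeks of age, with a transverse cut through the shaft of the left femur 12 weeks later and a 1.2 mm intramedullary nail. Gel rats received the gel alone and MgPA-Gel rats the MgPA-Gel bone adhesive, each injected around the fracture, and RNA was taken from 1 cm of femur at the fracture end. The collection time was not given in the sources used here. Whether the 3 libraries of a group are separate animals is not stated in the labels, and p-values then reflect only how these libraries vary. Total counts ran from 13629242 to 18197777 per library. Mitochondrial genes took 24.0% of the counts in Gel 1 and 25.9% in MgPA-Gel 1 against 5.29% to 8.83% in the other libraries. Osteoblast markers, which fit the labelled bone, summed to between 35780 and 103100 CPM, and the summed level of 5 skeletal muscle markers reached 27660 CPM in MgPA-Gel 1 against 8.79 to 1146 CPM elsewhere. CPM gives a gene's count relative to the total of its library after scaling for library composition, and FPKM, which also divides by gene length, is used wherever levels of different genes are compared.

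MHC class I molecules consist of a heavy chain and beta-2-microglobulin, sit on nearly all nucleated cells and display peptides made in the cytosol. The immunoproteasome cuts those peptides, the TAP transporter carries them into the endoplasmic reticulum and tapasin helps to load them. Class II molecules are alpha-beta pairs on macrophages, dendritic cells and B cells that display peptides from endosomes. The invariant chain Cd74 guards their groove until DM exchanges it for peptide, DO restrains DM, and the coactivator Ciita switches the class II genes on. In the rat, RT1-A encodes classical class I heavy chains, RT1-B and RT1-D the class II pairs, and the RT1-C/E/M region many further class I genes whose number differs between haplotypes.

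The promoters of the class II genes are shown first because their shared elements are where Ciita acts, through the factors that bind the X and Y boxes. RefSeq promoters (GRCr8, 250 bases before to 50 after the start) matched 34 of the 40 genes. Capitals mark GCAAC, the core of the X box, and TGATTGG, the Y box, and each stretch reads 5′ to 3′ on the gene's own strand.
RT1-Ba, chr20:4576975-4577024, plus strand: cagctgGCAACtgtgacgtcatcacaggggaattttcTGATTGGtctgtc
RT1-Da, chr20:4515327-4515376, plus strand: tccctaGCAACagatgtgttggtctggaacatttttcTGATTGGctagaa
RT1-Db1, chr20:4560232-4560280, minus strand: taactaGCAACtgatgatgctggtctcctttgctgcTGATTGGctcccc
RT1-DOa, chr20:4758520-4758569, minus strand: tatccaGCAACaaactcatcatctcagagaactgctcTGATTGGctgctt
RT1-DOb, chr20:4627596-4627642, minus strand: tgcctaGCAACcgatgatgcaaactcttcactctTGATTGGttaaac
RT1-Bb, chr20:4604169-4604218, minus strand: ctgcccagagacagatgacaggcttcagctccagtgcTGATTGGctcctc
RT1-DMa, chr20:4712389-4712438, minus strand: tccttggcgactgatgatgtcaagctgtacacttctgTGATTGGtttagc
The spacing between the elements was 26 bases in RT1-Ba, RT1-Da and RT1-DOa, 25 in RT1-Db1 and 23 in RT1-DOb. Searched on both strands of the 300-base windows, TGATTGG was present in 9 of 9 class II promoters and in 7.06% of all 33469 promoters, and GCAAC in 7 of 9 and in 35.1%. TGATTGG was also present in 9 of 18 class I promoters, those of RT1-A1 and RT1-A2 among them, and in 1 of 7 processing promoters (Psmb9), and GCAAC in 6 of 18 and 3 of 7. GCAAC followed by TGATTGG after 20 to 30 bases was present in 7 of 9 class II promoters, in 28 promoters of all 33469 (0.0837%), and in none of the 18 class I or 7 processing promoters matched. RT1-Bb and RT1-DMa held the Y box without GCAAC in this window.

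A second set shows class I promoters, where an NF-kappa-B element (enhancer A) and an interferon-stimulated response element lie side by side. Capitals mark GATTCCC, letters of the first, and GTTTCAC, letters of the second. These 4 genes include both classical RT1-A genes and RT1-CE10, whose counts are followed further on.
RT1-A1, chr20:4907077-4907117, plus strand: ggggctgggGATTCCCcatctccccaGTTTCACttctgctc
RT1-A2, chr20:4872691-4872730, plus strand: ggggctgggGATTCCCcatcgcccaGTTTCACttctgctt
RT1-CE10, chr20:3385140-3385179, minus strand: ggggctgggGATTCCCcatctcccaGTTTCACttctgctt
RT1-CE5, chr20:3484223-3484263, minus strand: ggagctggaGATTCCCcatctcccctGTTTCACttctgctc
GATTCCC was present in 5 of 18 class I promoters (RT1-A1, RT1-A2, RT1-CE4, RT1-CE5 and RT1-CE10) and in 3.31% of all promoters. GTTTCAC was present in 8 of 18 (these genes without RT1-CE4, and RT1-CE3, RT1-M3-1, RT1-N3 and RT1-S3) and in 2.67% of all. Neither was found in the 7 processing promoters matched. Matches on both strands were counted, and a match describes the letters of the reference only.

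B2m, the light chain of class I, was the most abundant member at 616.5 ± 77.8 FPKM (SD, n = 3) in Gel and 785.0 ± 49.8 in MgPA-Gel, followed by Cd74 at 403 ± 131 and 401 ± 43.6 FPKM. The class II chain RT1-Ba had 110 ± 64.2 FPKM in Gel and 76.2 ± 25.5 in MgPA-Gel, and the class I heavy chain RT1-A2 had 76.0 ± 31.9 and 91.7 ± 24.2. Between neighbours in this order, RT1-Ba, RT1-A2 and RT1-Da (88.9 ± 31.6 and 75.9 ± 11.3 FPKM) did not differ beyond the spread of their libraries.

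**Figure D1:**
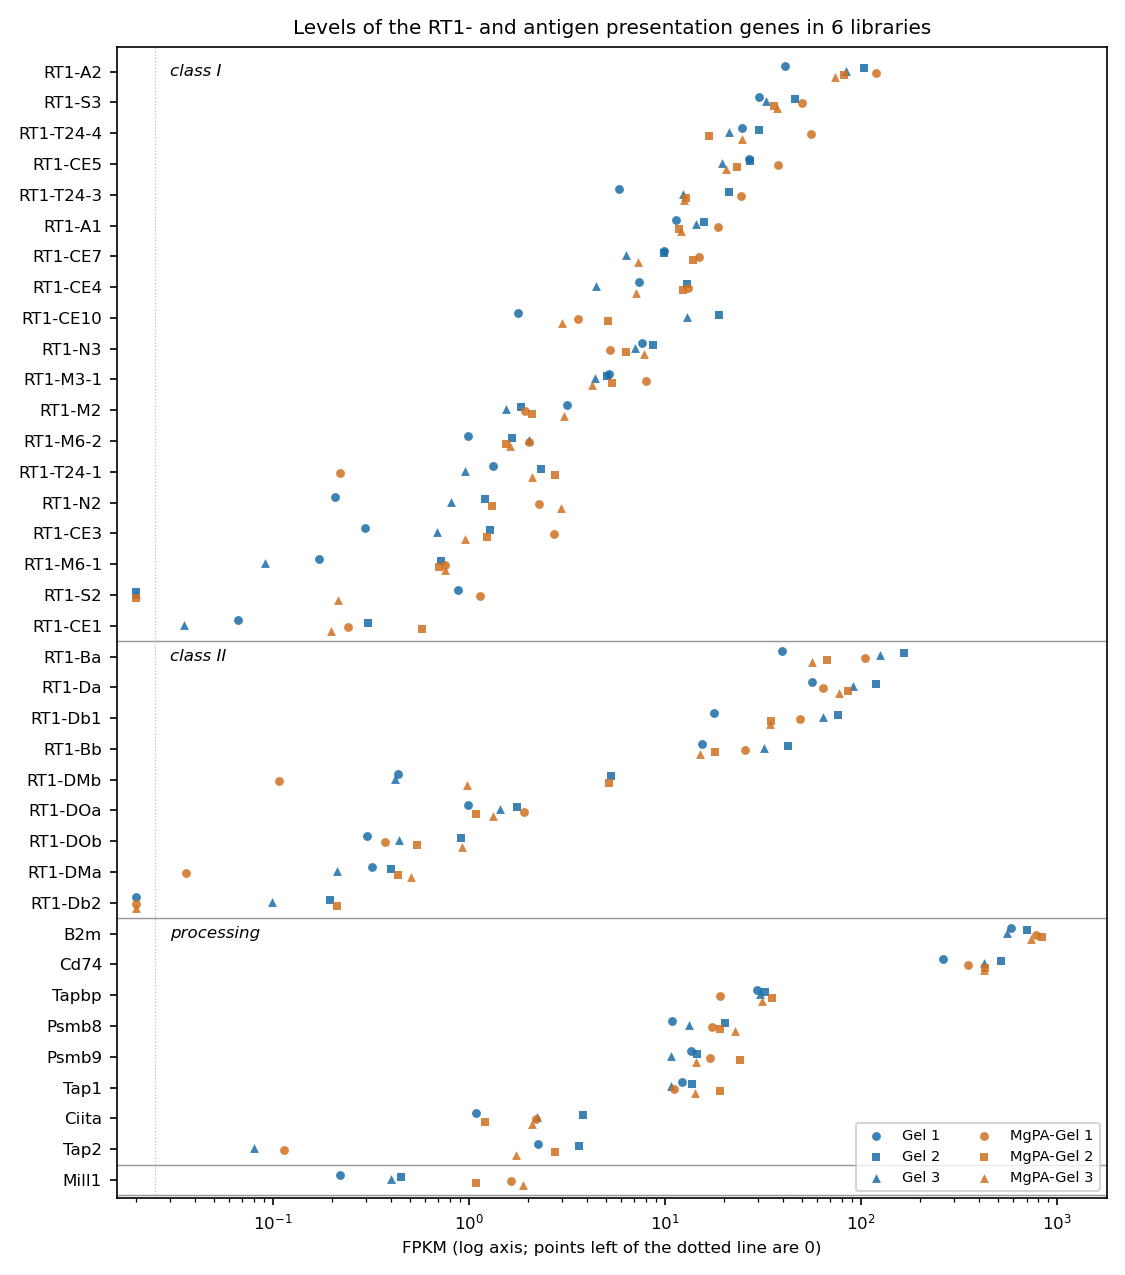
FPKM on a log axis of the 37 genes with counts, 1 point per library, ordered by class and mean level and shifted slightly up or down so that points stay visible. Points of RT1-DMb, Tap2 and RT1-M6-1 lie far apart, whereas those of B2m and RT1-S3 lie close together.

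Class II was high in Gel 2 and low in Gel 1. RT1-Ba, the alpha chain of RT1-B, had 53.4, 225 and 170 CPM in Gel 1, 2 and 3 and 143, 92.1 and 76.5 CPM in MgPA-Gel 1, 2 and 3. Its beta chain RT1-Bb had 62.2, 172 and 130 CPM in the Gel libraries and 104, 73.6 and 61.0 CPM in the MgPA-Gel libraries. Both chains were highest in Gel 2 and then in Gel 3, and the groups overlapped because Gel 1 lay below MgPA-Gel 1 and 2. RT1-Da, the alpha chain of RT1-D, had 139, 298 and 228 CPM in the Gel libraries and 160, 218 and 193 CPM in the MgPA-Gel libraries. Its partner RT1-Db1 had 56.3, 244 and 205 CPM in the Gel libraries and 155, 113 and 109 CPM in the MgPA-Gel libraries. Gel 2 was again highest and Gel 1 lowest for both RT1-D chains. RT1-Db2, a second beta chain, had at most 5 counts in a library.

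The fitted log2 fold changes of MgPA-Gel over Gel were -0.53 ± 0.52 (SE) for RT1-Ba, -0.61 ± 0.39 for RT1-Bb, -0.22 ± 0.30 for RT1-Da and -0.42 ± 0.51 for RT1-Db1. None passed edgeR's quasi-likelihood test after Benjamini-Hochberg adjustment over all genes tested (adjusted p = 0.998 for each). Gel 1 decided the overlap: without it, all of RT1-Ba, RT1-Bb, RT1-Da and RT1-Db1 were lower in MgPA-Gel with no overlap, against 12.7% of all genes without overlap in either direction. Without Gel 2, the median log2 fold change of the class turned from -0.097 to 0.147.

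Cd74 and Ciita ran beside the chains to different degrees. Cd74 had 362, 723 and 592 CPM in the Gel libraries and 487, 600 and 587 CPM in the MgPA-Gel libraries. Its highest library was Gel 2 and its lowest Gel 1, a 2.0-fold range. Ciita had 5.96, 21.0 and 12.3 CPM in the Gel libraries and 12.2, 6.75 and 11.6 CPM in the MgPA-Gel libraries, a 3.53-fold range with the same highest and lowest libraries. The log2 fold changes were -0.0026 ± 0.29 for Cd74 and -0.37 ± 0.47 for Ciita (adjusted p = 0.999 and 0.998, edgeR quasi-likelihood test).

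**Figure D2:**
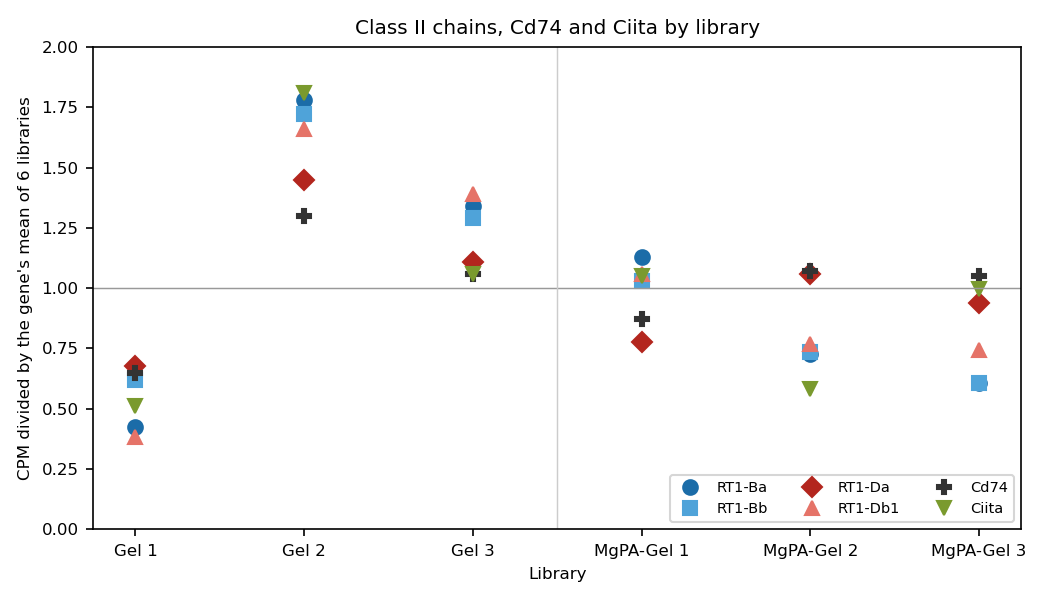
CPM of the class II chains, Cd74 and Ciita in each library, divided by the gene's own mean over the 6 libraries. All 6 genes lie above 1 in Gel 2, between 1.3 and 1.81, and below 1 in Gel 1, between 0.383 and 0.677.

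In bulk tissue, fewer cells of a type and less RNA per cell cannot be told apart. The summed class II level was 315, 954 and 738 CPM in Gel and 565, 509 and 446 CPM in MgPA-Gel. The 7 B cell markers found summed to 15.8, 33.9 and 78.8 CPM in Gel and to 62.9, 22.4 and 9.95 CPM in MgPA-Gel. Pax5 alone gave 41.4 CPM of this in Gel 3 and 32.4 CPM in MgPA-Gel 1, against 0.527 to 8.46 CPM in the other libraries. The 9 macrophage markers summed to between 1236 and 1410 CPM in Gel and between 1160 and 2013 CPM in MgPA-Gel, highest in MgPA-Gel 3. The 10 dendritic cell markers summed to between 152 and 238 CPM in Gel and between 110 and 287 CPM in MgPA-Gel, with Cd209 at 0 in every library and Siglech at 0 in MgPA-Gel 1. Fscn1 and Itgax made up most of that sum, at 101 and 75.1 CPM in Gel 1. Flt3, a less abundant marker singled out after its values were seen, had 0.685, 6.01 and 3.225 CPM in the Gel libraries. It had 5.63, 2.97 and 2.40 CPM in the MgPA-Gel libraries, so it was lowest in Gel 1 and highest in Gel 2 as were the RT1-D chains. No other marker of the dendritic cell list was both lowest in Gel 1 and highest in Gel 2. Clec9a and Ccr7 were also highest in Gel 2 and Batf3 was lowest in Gel 1. Zbtb46, Batf3 and Fscn1 were highest in MgPA-Gel 2, Itgax in MgPA-Gel 3 and Xcr1 in Gel 3. The 7 T cell markers summed to between 16.6 and 52.7 CPM over the 6 libraries. The 5 NK cell markers summed to between 2.33 and 7.45 CPM with Klrb1 at 0 throughout, the 8 neutrophil markers to between 78.1 and 2622 CPM and the 5 endothelial markers found to between 327 and 610 CPM. The part of these cell types in the class II levels was not tested.

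Within a library, some ratios between chains fell into 2 sets that cut across the groups. The FPKM ratio of RT1-Ba to RT1-Da was 1.39 in Gel 2, 1.37 in Gel 3 and 1.64 in the first MgPA-Gel library. It was 0.704 in Gel 1, while MgPA-Gel 2 and 3 had 0.778 and 0.73. The ratio of RT1-Da to its partner RT1-Db1 divided the same libraries, at 1.31 to 1.56 in the first 3 and 2.26 to 3.16 in the others. The ratio of B2m to the class I chain RT1-A2 did so as well, at 6.55 to 6.83 against 10 to 14.4. RT1-Ba over its own partner RT1-Bb did not divide the libraries so: it was 2.56 in Gel 1 and 3.72 to 4.09 in the other 5. Cd74 over RT1-Da also did not divide the libraries in this way and stayed between 4.36 and 5.48. The ratios were chosen with the counts known, so they are descriptions. RT1-Da enters both RT1-Ba over RT1-Da and RT1-Da over RT1-Db1, so those ratios do not vary independently.

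**Figure D3:**
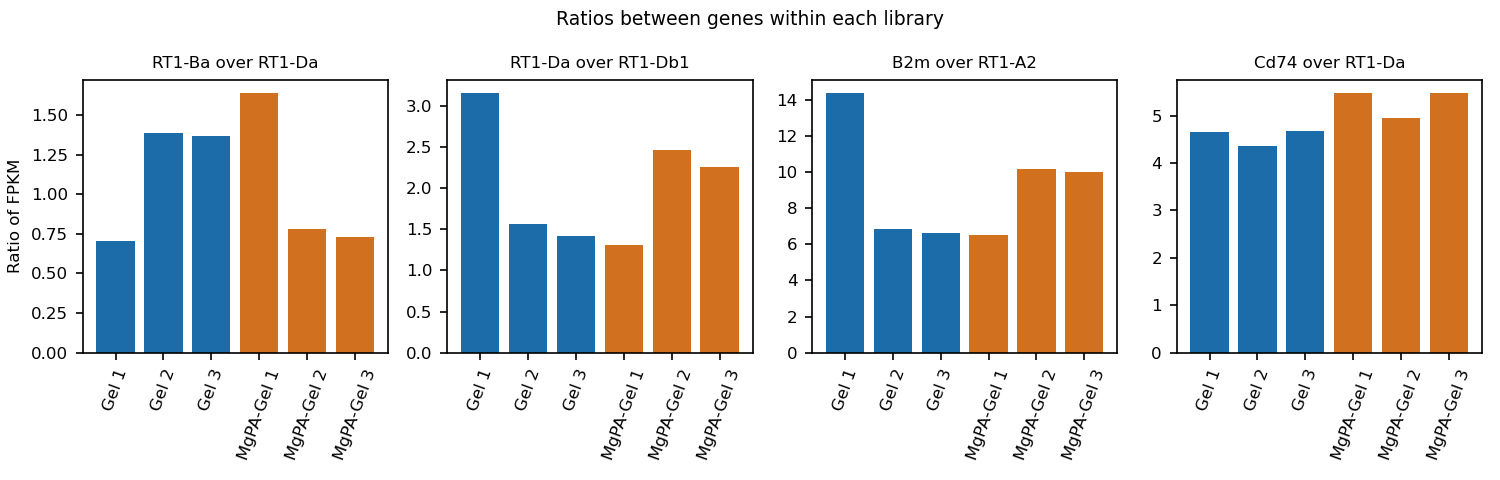
Ratio of FPKM between pairs of genes within each library, blue for Gel and orange for MgPA-Gel. Gel 2, Gel 3 and MgPA-Gel 1 share a high RT1-Ba over RT1-Da and low RT1-Da over RT1-Db1 and B2m over RT1-A2, whereas Cd74 over RT1-Da is nearly level.

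The peptide exchange genes were low, and RT1-DMb and RT1-DMa each had another row described with the same protein. RT1-DMb, the beta chain of DM, had 11, 160 and 10 counts in Gel and 3, 145 and 29 counts in MgPA-Gel. LOC108348139, a row described with the same protein, had 12, 34 and 146 counts in Gel and 335, 12 and 35 counts in MgPA-Gel. Where RT1-DMb was low in Gel 3 and MgPA-Gel 1, the other row was high. In Gel 1 both rows were low, at 11 and 12 counts, and in MgPA-Gel 3 they had 29 and 35. The CPM of the 2 rows summed still had a 13.4-fold range over the libraries. RT1-DMb held 0.888% of the summed counts in MgPA-Gel 1 (95% exact binomial interval 0.183 to 2.57%) and 92.4% in MgPA-Gel 2 (87.0 to 96.0%). The intervals cover counting error only.

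RT1-DMa, the alpha chain, had 8, 12 and 5 counts in Gel and 1, 12 and 15 in MgPA-Gel. The row LOC108348072, described as the same chain, had 2, 6 and 346 counts in Gel and 0, 13 and 16 in MgPA-Gel. In Gel 3, RT1-DMa held 1.42% of the summed counts (0.464 to 3.29%). The assignment of reads that fit both rows was not given in the sources used here, so the level of each row is uncertain. RT1-DOa ranged from 1.64 to 3.19 CPM and RT1-DOb from 0.548 to 1.70 CPM. Fold changes of the 4 genes lay between 0.03 and 0.16 on the log2 scale with SE of 0.41 to 1.45, and none passed the test (adjusted p = 0.998 to 0.999, edgeR quasi-likelihood test).

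**Figure D4:**
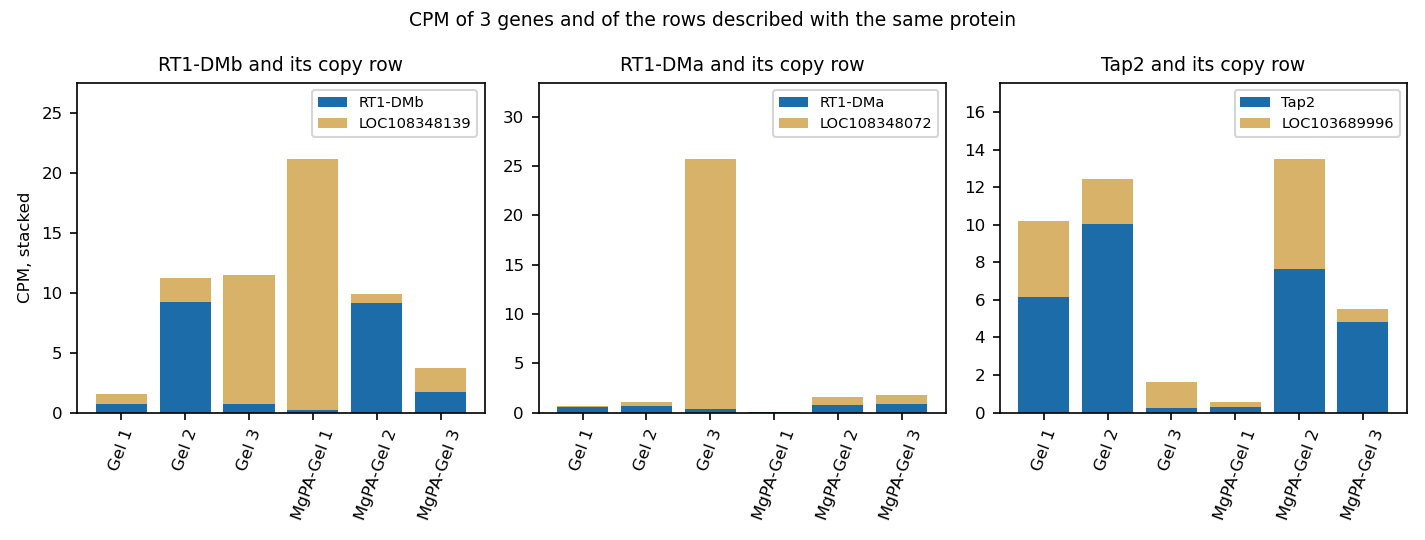
CPM of RT1-DMb, RT1-DMa and Tap2 (blue) with the CPM of the row described with the same protein stacked on top (tan), per library. RT1-DMb and its copy row trade places between MgPA-Gel 1 and MgPA-Gel 2, and the copy row of RT1-DMa stands out in Gel 3 alone.

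Class I heavy chains were present in every library. RT1-A2, a classical heavy chain, had 67.7, 172 and 140 CPM in the Gel libraries and 199, 139 and 122 CPM in the MgPA-Gel libraries. MgPA-Gel 1 was highest and Gel 1 lowest for it. RT1-S3, of the telomeric class I region, had 52.9, 81.8 and 58.0 CPM in the Gel libraries and 88.1, 64.2 and 66.0 CPM in the MgPA-Gel libraries. RT1-T24-4 had 40.2, 49.3 and 34.7 CPM in the Gel libraries and 90.6, 27.7 and 40.4 CPM in the MgPA-Gel libraries, and here MgPA-Gel 1 stood above the other 5 libraries. The groups overlapped for all 3 genes. RT1-A1, RT1-CE5, RT1-T24-3, RT1-CE7, RT1-CE4 and RT1-N3 completed the 10 class I genes of highest mean FPKM together with RT1-CE10, with means over all libraries of 7.14 to 25.9 FPKM for these 6 and 7.57 FPKM for RT1-CE10.

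RT1-CE10, of the RT1-C/E region, had 3.15, 33.6 and 23.2 CPM in the Gel libraries and 6.38, 9.21 and 5.27 CPM in the MgPA-Gel libraries. Gel 2 and Gel 3 were high and the other 4 libraries low. The class I row LOC103690108, which is not an RT1- name, had 1117 counts in Gel 2 and 827 in Gel 3 against 0, 0, 6 and 0 in Gel 1 and MgPA-Gel 1, 2 and 3. LOC100364500, described as a CE11-like class I gene, had 62, 269 and 166 counts in Gel and 27, 43 and 79 in MgPA-Gel. Both rows were highest in the same 2 libraries as RT1-CE10. The log2 fold change of RT1-CE10 was -1.52 ± 0.77 (adjusted p = 0.998, edgeR quasi-likelihood test).

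Overlapping gene models add to the uncertainty. Of the class I genes, 9 lay in 10 overlapping same-strand pairs, among them RT1-CE4, RT1-CE7 and RT1-CE5, and RT1-A1 with RT1-A2. The summed level of the 21 RT1- class I rows was 342, 586 and 416 CPM in Gel and 680, 464 and 414 CPM in MgPA-Gel. Adding the 30 class I rows of chromosome 20 under other names gave 517 ± 156 CPM (SD, n = 3) in Gel and 543 ± 149 in MgPA-Gel. The 30 rows alone reached 94.2 CPM in Gel 2 and 84.7 in Gel 3 and 18.5 to 31.3 CPM in the other libraries.

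RT1-N2 was higher in MgPA-Gel without overlap. Its counts were 6, 42 and 22 in Gel and 73, 42 and 100 in MgPA-Gel, or 0.411, 2.43 and 1.61 CPM against 4.56, 2.65 and 5.85 CPM. The nearest libraries, Gel 2 and MgPA-Gel 2, both had 42 counts, so the separation there rests on the scaling of the libraries. The log2 fold change was 1.54 ± 0.65 (adjusted p = 0.998, edgeR quasi-likelihood test).

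Of the 8 processing genes, B2m was the 1 whose groups did not overlap, against 6.88% of all genes. It had 1062, 1286 and 1021 CPM in the Gel libraries and 1424, 1540 and 1341 CPM in the MgPA-Gel libraries, so all MgPA-Gel libraries lay above all Gel libraries. The log2 fold change was 0.35 ± 0.21 (adjusted p = 0.998, edgeR quasi-likelihood test) and did not pass the test. Psmb8 and Psmb9, catalytic subunits of the immunoproteasome, had log2 fold changes of 0.42 ± 0.26 and 0.51 ± 0.25. Psmb8 had 22.3, 41.6 and 27.6 CPM in the Gel libraries and 35.9, 39.8 and 47.1 CPM in the MgPA-Gel libraries. Psmb9 had 20.5, 22.2 and 16.4 CPM in the Gel libraries and 25.8, 36.9 and 21.7 CPM in the MgPA-Gel libraries, where MgPA-Gel 3 fell just below Gel 2. Neither passed the test (adjusted p = 0.998).

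Tap1, a subunit of the peptide transporter, had 49.9, 57.0 and 44.4 CPM in the Gel libraries and 46.1, 79.9 and 58.9 CPM in the MgPA-Gel libraries, with a log2 fold change of 0.29 ± 0.23. MgPA-Gel 2 was highest for Tap1, Psmb9 and B2m. Tapbp, which encodes tapasin, had 60.5, 66.8 and 63.2 CPM in the Gel libraries and 39.4, 72.6 and 63.9 CPM in the MgPA-Gel libraries, with MgPA-Gel 1 lowest and a log2 fold change of -0.12 ± 0.24. MgPA-Gel 1 is the library with the most muscle marker counts, whose part in the low Tapbp level was not tested.

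Tap2, the other transporter subunit, stepped between libraries. It had 90, 174 and 3 counts in Gel and 5, 121 and 82 counts in MgPA-Gel. Gel 3 and MgPA-Gel 1 were at 0.220 and 0.313 CPM and the remaining libraries at 4.80 to 10.1 CPM, so the low libraries came from both groups. LOC103689996, described as the same transporter, had 59, 41 and 19 counts in Gel and 4, 93 and 12 in MgPA-Gel. The 2 rows together gave 1.61 CPM in Gel 3 and 0.563 CPM in MgPA-Gel 1 against 5.50 to 13.5 CPM elsewhere. The log2 fold change of Tap2 was -0.37 ± 1.32 (adjusted p = 0.998, edgeR quasi-likelihood test).

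A gene was said to step when its highest count reached 30 and neighbouring libraries, in order of CPM, were at least 4-fold apart somewhere (counts under 3 set to 3). By this measure 4 of 32 members with such a count stepped, against 6.32% of all 14361 genes with one. They were Tap2, with a largest gap of 3.94 on the log2 scale, RT1-DMb with 2.43, RT1-T24-1 with 2.14 and RT1-M6-1 with 2.05. RT1-M6-1 lay just inside the threshold and RT1-N2, at 1.97, just outside. RT1-T24-1, a class I gene, had 22, 46 and 15 counts in Gel and 50 and 41 in MgPA-Gel 2 and 3, but 4 in MgPA-Gel 1. RT1-M6-1, also class I, had 6, 30 and 3 counts in Gel and 29, 27 and 31 in MgPA-Gel, so Gel 1 and Gel 3 were low. The set of low libraries differed from gene to gene, but some libraries recurred. MgPA-Gel 1 was on the low side for Tap2, RT1-DMb and RT1-T24-1, and Gel 3 for Tap2, RT1-DMb and RT1-M6-1.

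When each member was summed with the row described with the same protein, an alternative chosen after seeing the data, RT1-DMb and Tap2 no longer stepped (largest gaps 1.40 and 1.77 on the log2 scale) and RT1-DMa did (3.83). The median largest gap was 0.624 for the members and 0.432 for all genes on the log2 scale, and the median ratio of highest to lowest library was 2.58 against 1.93. Members stepped in 14.3% of 28 rows between the first and last chromosome 20 member (154074 to 5476193 in the deposited table's coordinates, their genome build not given in the sources used here). Other rows of that interval stepped in 6.42% of 109 and rows elsewhere in 6.3% of 14224.

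Compared between the groups, none of the 34 members tested passed edgeR's quasi-likelihood test at an adjusted p of 0.05, where 0% of 14818 genes did so. At an unadjusted p under 0.05, where 2.63% of all genes lay (1.78% higher and 0.844% lower), there were 0 of the 33 members other than Mill1. Mill1 was below it, which its inclusion fixed. DESeq2 called 10 of 14693 genes (0.0681%), and 1 of them, Mill1, was a member. The groups did not overlap for 2 of these 33 members, RT1-N2 and B2m, both higher in MgPA-Gel, against 6.88% of all genes (3.26% higher and 3.62% lower). The median log2 fold change was 0.27 for class I, -0.097 for class II and 0.14 for the processing genes, and 0.033 for all genes tested.

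In class I, 15 of 17 genes had a higher mean in MgPA-Gel, in class II 4 of 8 and among the processing genes 4 of 8, against 54.8% of all genes. The class I count rested on the libraries numbered 1: without Gel 1 and MgPA-Gel 1, 9 of 18 were higher against 49.5% of all genes, and the class I median was -0.0512. Without MgPA-Gel 1 alone, 11 of 18 were higher against 52% of all genes, and the class I median was 0.0388. These 2 libraries also had the highest share of mitochondrial counts. Leaving mitochondrial genes out of all libraries alters the library scaling but not the counts of the class I genes. With them left out, 15 of 17 class I genes were higher, against 52.3% of all genes, and the class I median was 0.254. What sets the libraries numbered 1 apart was not tested.

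**Figure D5:**
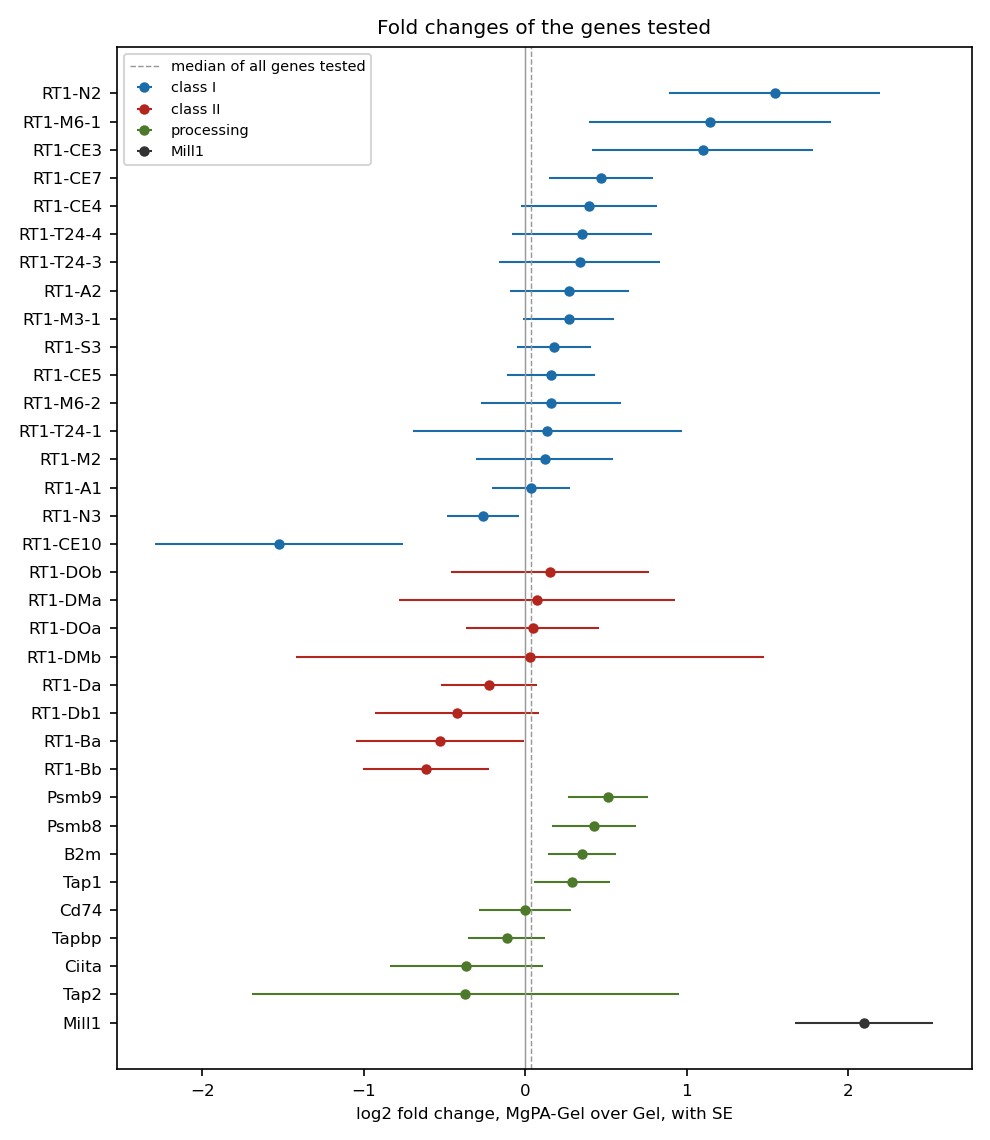
Fitted log2 fold change of MgPA-Gel over Gel with its SE for the 34 genes tested, grouped by class, with the median of all genes tested as a dashed line. Class I points lie mostly right of 0 while the RT1-B and RT1-D chains lie left, and SE bars are widest for RT1-DMb and Tap2.

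Mill1, a class I-like gene outside the RT1 region that rats and mice carry, was at 0.754, 1.56 and 1.39 CPM in Gel (11, 27 and 19 counts) and at 5.69, 3.79 and 6.50 CPM in MgPA-Gel (91, 60 and 111 counts). Every MgPA-Gel library lay above every Gel library, and the log2 fold change was 2.10 ± 0.43. It was included because of this difference. Its level stayed low, at 0.358 ± 0.122 FPKM in Gel and 1.54 ± 0.41 in MgPA-Gel.

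Genes that feed the pathway but are not members were examined as lists. Of all genes tested, 54.8% had a higher mean in MgPA-Gel, and their median log2 fold change was 0.033. Of the class II pathway (cathepsins, Ifi30, Lgmn and costimulators) 10 of 10 tested were higher on average under MgPA-Gel, the median log2 fold change being 0.21, and 0 were called. That count rested on MgPA-Gel 2: without it, an alternative chosen after seeing the data, 3 of 10 had a higher mean CPM in MgPA-Gel and 7 a lower one. The list summed to 5229 CPM in MgPA-Gel 2 and 2592 CPM in MgPA-Gel 1, against 3511 to 4407 CPM elsewhere. MgPA-Gel 2 also had the highest summed neutrophil markers, mostly from S100a9, Csf3r and S100a8 at 1229, 628 and 615 CPM. Cxcr2 was highest there too, whereas Mpo, Camp, Ngp and Elane were highest in MgPA-Gel 1. The part of neutrophils in the level of the class II pathway list was not tested. The lysosomal protease Ctsb was at 1789 ± 121 CPM (SD, n = 3) in Gel and 1989 ± 800 in MgPA-Gel. Of the 13 regulators of MHC genes 11 had a higher mean, with a median of 0.21, and 0 were called. The myeloid factor Spi1 was at 109 ± 34.4 and 141 ± 36.3 CPM.

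For class I loading and peptide supply 3 of 11 tested were higher and 8 lower on average (median log2 fold change -0.06), and 0 were called. Without MgPA-Gel 1, 5 of the 11 had a higher mean CPM and 6 a lower one. The chaperone Calr was at 970 ± 65.5 and 870 ± 205 CPM. Of class I-like genes outside RT1, 3 of 6 had a higher mean and 0 were called, and Fcgrt, which transports IgG, was at 208 ± 34.8 and 186 ± 22.4 CPM. Of interferon gamma and interferon-stimulated genes 15 of 21 had a higher mean, with a median of 0.39 and 0 called. Without MgPA-Gel 2, 12 of the 21 had a higher mean CPM and 9 a lower one. The summed level of the list was 2141 CPM in MgPA-Gel 2 against 846 to 1140 CPM in the other libraries. Ifit3, named after its values were seen, reached 413 CPM in MgPA-Gel 2 and lay between 7.70 and 55.5 CPM elsewhere. Jak2, Jak1 and Ifngr1 had 433, 273 and 269 CPM in MgPA-Gel 2. Mx1, Mx2, Oas1a, Usp18 and Cxcl9 were instead lowest in that library, at 4.35, 1.83, 3.09, 4.92 and 0.820 CPM.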

How the data were processed

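Poly-T selected RNA of 1 cm of femur was sequenced in 6 libraries (1.3 µg input, fragments of 370 to 420 bp, per the labels' protocols). The authors deposited whole-number counts per gene and FPKM values per gene. The submitters' processing notes name, without roles, edgeR 3.22.5, DESeq2 1.20.0, featureCounts 1.5.0-p3, HISAT2 2.0.5, StringTie 1.3.3b and fastp. Strandedness, genome build and the handling of reads that fit several genes were not given in the sources used here.

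Rows without a gene (11692, 0% of counts) were left out, and 12732 genes had 0 counts everywhere. Counts were fitted with edgeR 4.0.16 in R 4.3.3 (filterByExpr, TMM scaling, robust quasi-likelihood, Benjamini-Hochberg over 14818 genes, two-sided, threshold 0.05). CPM used TMM-scaled library sizes. Total counts were 13629242 to 18197777, and their number limits the precision of low genes. Genes were placed in classes by their RT1- names. The text names every class II and processing gene, Mill1, and class I genes that step or are among the 10 of highest mean FPKM; RT1-N2 and the rows with LOC names were added after their values were seen. Members, lists and tests were chosen with earlier results of these data known. Alternatives covered scaling, filters, DESeq2 1.42.0, limma 3.58.1 on log2(FPKM + 1) and log2(FPKM + 0.1), a replicate block, and leaving out libraries or mitochondrial genes.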

Additional observations from a re-analysis of the deposited data

How the results depend on the processing

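Each class median changed sign under at least 1 alternative. Without 1 library the medians ranged from 0.0388 to 0.494 for class I, from -0.458 to 0.147 for class II (above 0 without Gel 2) and from -0.0029 to 0.397 for the processing genes (below 0 without MgPA-Gel 2), and without Gel 1 and MgPA-Gel 1 the class I median was -0.0512. Counts of all genes called were 10 with DESeq2 and 0 to 2 without 1 library, and members called were 1 with DESeq2 (Mill1) and 0 otherwise. Members at an unadjusted p under 0.05, Mill1 included, numbered 2 with no filter on low counts (2.19% of all genes), 2 on both FPKM scales (2.21% and 2.23%), 3 with DESeq2 (4.34%), 5 without Gel 1 and MgPA-Gel 1 (2.14%), and 1 to 5 without 1 library (1.38% to 4.93%). Members without overlap numbered 17 without Gel 1 and MgPA-Gel 1, where 28.1% of all genes did not overlap, and 3 to 10 without 1 library, where 12.7% to 19.1% did not. Stepping members numbered 1 of 32, which was Tap2, at a gap of log2 3, where 418 of 14361 genes stepped. With a floor of 10 counts they numbered 2 of 32, where 710 of 14361 genes stepped. Without 1 library they ran from 3 of 31 (without MgPA-Gel 1, 583 of 13929 genes) to 5 of 32 (without Gel 3, 957 of 14297 genes).

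With the replicate number as a block, 2 members (Mill1 and Psmb9) were at an unadjusted p under 0.05 (3.13% of all genes) and no member was called. Libraries sharing a number had deviations from their group means that correlated at 0.249, 0.200 and -0.027. For libraries of different number the correlations ran from -0.286 to 0.059. The main fit did not take the numbers as pairs, and whether they mark pairs was not tested. Under that block the log2 fold changes of Cd74, RT1-DMb, RT1-DMa and RT1-T24-1 changed sign, to 0.049, -0.073, -0.19 and -0.20.

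None of the 30 named fold changes but that of Mill1 with DESeq2 passed the adjusted threshold under any of these alternatives, and 14 kept their sign throughout. Cd74 turned to 0.00072 with at least 1 CPM in 3 libraries, to 0.0437 with log2(FPKM + 1) and to 0.0439 with log2(FPKM + 0.1). With log2(FPKM + 0.1), RT1-DMb turned to -0.11, RT1-DMa to -0.19 and RT1-T24-1 to -0.29, the last also to -0.034 with log2(FPKM + 1). Without Gel 1 and MgPA-Gel 1, the values were 0.048 for Tapbp, 0.24 for Tap2, -0.42 for RT1-DOa, -0.28 for RT1-A2, -0.12 for RT1-S3, -0.32 for RT1-T24-4, -0.11 for RT1-CE5, -0.43 for RT1-T24-3 and -0.36 for RT1-A1. Leaving out 1 library gave ranges across 0 of -0.24 to 0.23 for Cd74, -0.47 to 0.048 for RT1-Da, -0.30 to 0.10 for Tapbp, -0.71 to 0.15 for Ciita, -1.10 to 0.41 for Tap2, -1.92 to 2.30 for RT1-DMb, -0.21 to 0.25 for RT1-DOa, -0.26 to 0.74 for RT1-DOb, -0.39 to 0.59 for RT1-DMa, -0.40 to 0.65 for RT1-T24-1, -0.030 to 0.56 for RT1-A2, -0.28 to 0.66 for RT1-T24-4, -0.15 to 0.33 for RT1-CE5, -0.053 to 0.87 for RT1-T24-3 and -0.21 to 0.14 for RT1-A1. The cause of these changes was not tested.

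Depth limits the genes with few counts: 3 counts correspond to 0.173 to 0.220 CPM over the 6 libraries, near the lowest values of Tap2, RT1-DMb and RT1-M6-1 and above that of RT1-DMa.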
